A study of Mus musculus with 2 samples.

Results

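The genes described here are 42 genes of endothelial cells and of blood vessel growth, chosen by symbol as a fixed list. All 42 were represented on the array, among 18193 genes in all, by 80 probe sets that are each annotated to that gene only. The study compared gonad-mesonephros complexes, the embryonic gonad with the attached mesonephric kidney, taken from XX mouse embryos of stage E12.5. The control group was wild type, and the other group was homozygous for Gata4ki, a knock-in allele of the transcription factor GATA4 that weakens its binding to the FOG cofactors. The strain is given for the mutant only, as C57Bl/6. Each group was 1 array, hybridised with biotin-labelled cRNA made from the pooled RNA of 6 pairs of complexes, so embryos were not measured singly and no value has a replicate error, a test or a p-value. The allele is carried by every cell of the embryo.

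Endothelial cells line the vessels of the gonad and the mesonephros. VEGF ligands made by surrounding cells act through the tyrosine kinase receptors KDR, FLT1 and FLT4 to start vessel growth. Angiopoietins act through the receptor TEK to settle or loosen the vessel wall, and adrenomedullin, apelin and sphingosine-1-phosphate act through G protein-coupled receptors. ETS and SOXF transcription factors set endothelial identity. In the XY gonad at about this stage endothelial cells from the mesonephros form a coelomic vessel that the XX gonad lacks, and XX gonads of mice without Wnt4 or Fst are known to form such a vessel.

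Values are MAS5 signals, a linear measure of the brightness of a probe set. The brightest probe set stands for each gene. Signals at or below the 50th percentile of both arrays, 24.0, were treated as equal to that floor, and a gene counts as measured if either array exceeded it. Log2 ratios are mutant over wild type, so that a negative ratio means a lower signal in the mutant. In all, 12300 genes were measured, and their median log2 ratio was 0.01. Over genes above the floor on both arrays, the log2 ratio had a robust SD of 0.37 below a mean signal of 100, 0.21 between 100 and 400, and 0.12 above. In 4936 genes with 2 probe sets above the floor on both arrays, the log2 ratios of the 2 brightest differed by a median of 0.18 and by 0.57 at the 90th percentile. The wild-type and mutant signals of Gata4 were 241 and 286 on the brighter probe set, and 49.2 and 34.6 on the dimmer. These values do not check the labels, because the allele alters the protein. As a sign of RNA quality, the beta-actin 3' probe set read 2.16 times the 5' one on the wild-type array and 2.47 times on the mutant array, with 0.90 and 1.10 for Gapdh.

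The upstream sequences of 4 members are shown because Adm and Tal1 mark the ends of the range described below, with the lowest and the highest ratio, and Tek and Cd34 are examples of a receptor and a surface protein with lower signals in the mutant. Each run is the 250 bases before the annotated start, 5′ to 3′ on the plus strand of GRCm38.p6, from RefSeq. Of the 42 members, 22 had an entry, with 29 windows. The files name no build for the array, so these positions belong to the reference and not to the probes. Capitals mark exact matches on either strand to any of 4 motifs. The core bound by ETS factors was searched as CAGGAAG. That bound by GATA factors was searched as AGATAA, and that of the SOX factors was searched as AACAAT. The hypoxia response element was searched by its core ACGTG.
Adm, chr7:110627407-110627656: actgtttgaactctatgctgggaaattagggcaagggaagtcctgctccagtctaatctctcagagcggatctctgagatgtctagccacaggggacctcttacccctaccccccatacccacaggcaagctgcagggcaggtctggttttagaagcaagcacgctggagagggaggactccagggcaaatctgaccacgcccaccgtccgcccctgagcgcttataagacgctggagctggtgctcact
Tal1, chr4:115056176-115056425: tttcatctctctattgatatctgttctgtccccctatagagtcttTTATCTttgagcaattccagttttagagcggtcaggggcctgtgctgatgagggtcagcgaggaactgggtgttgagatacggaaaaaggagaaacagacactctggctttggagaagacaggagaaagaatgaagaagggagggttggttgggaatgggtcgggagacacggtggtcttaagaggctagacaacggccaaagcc
Tek, chr4:94739039-94739288: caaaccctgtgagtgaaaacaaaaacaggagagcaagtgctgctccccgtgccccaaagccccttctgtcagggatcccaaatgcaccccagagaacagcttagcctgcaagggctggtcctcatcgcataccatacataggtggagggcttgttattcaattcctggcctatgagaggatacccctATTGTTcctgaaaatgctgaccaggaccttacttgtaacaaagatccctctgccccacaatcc
Cd34, chr1:194938571-194938820: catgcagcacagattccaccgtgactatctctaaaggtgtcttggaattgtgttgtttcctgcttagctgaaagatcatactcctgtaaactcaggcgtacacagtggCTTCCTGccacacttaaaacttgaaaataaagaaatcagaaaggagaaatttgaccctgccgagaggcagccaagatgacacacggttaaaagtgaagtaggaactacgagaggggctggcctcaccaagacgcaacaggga

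In these windows Tal1 held the GATA letters, 205 bases before its start, Tek the SOX letters, 63 bases before, and Cd34 the ETS letters, 142 bases before, each on the minus strand. The Tal1 window shown is the first of 2, and the other held none of the 4 motifs. None of the 4 sets of letters was in the Adm window. The ETS letters were in 8 of the 29 member windows, or 27.6%, against 10.8% of the 32851 windows of all genes. They lay in windows of Apln, Calcrl, Cd34, Egfl7, Emcn, Erg and Robo4. The GATA letters were in 3 member windows (10.3%, against 9.99% of all), the SOX letters in 4 (13.8%, against 9.42%) and the hypoxia letters in 2 (6.90%, against 16.6%). Several windows belong to 1 gene, a match is a match of letters only, and no binding was measured.

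Most endothelial genes had similar signals on both arrays, with a small lean towards lower signals in the mutant. Of the 42 genes, 41 were above the floor on both arrays on the brightest probe set, where 11462 of all 18193 genes were. Prox1 was above it on neither. The 8 genes used as markers of endothelial cells, Pecam1, Cdh5, Kdr, Tek, Tie1, Esam, Erg and Cldn5, were above the floor on both arrays on that measure. Second probe sets of Cdh5 and Erg lay under the floor on both, and of the 80 probe sets of members 66 were measured. The ratio was below 0 in 28 of the 41 measured members, or 68.3%, where 48.6% of all measured genes had a ratio below 0. The median log2 ratio of the members was -0.12, with quartiles of -0.29 and 0.06, beside a median of 0.01 and quartiles of -0.13 and 0.15 for all genes. Over their 66 measured probe sets 43 ratios were below 0, or 65.2%, beside 50.6% of all measured probe sets. The share of 48.6% of all measured genes also stands beside the counts below 0 in the groups and lists that follow. In whole tissue, fewer endothelial cells and less RNA per cell cannot be told apart, and the arrays also mix gonad and mesonephros.

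No member reached a 2-fold difference in either direction. Of all measured genes 0.846% did so upwards and 0.537% downwards, shares too low to set the 41 members apart. Tal1, Vwf and Angpt2 were at least 1.5-fold higher, 3 of 41 where 3.54% of all genes were. Adm, Lyve1 and Sox17 were at least 1.5-fold lower, 3 of 41 where 3.11% of all genes were. Measured against genes of like signal, Sox17, Sox18, Adm, Angpt1 and Tek lay more than 2 robust SDs below 0, 5 of 41 where 4.14% of 11462 genes did. Tal1 and Vwf lay more than 2 robust SDs above 0, 2 of 41 where 4.57% of those genes did. This last measure was chosen after the values had been seen. The other 35 members were within 1.5-fold. Among the 16 members with at least 2 measured probe sets, these shared a sign in 8 and differed in sign in the other 8. The same count over all genes is not given here.

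**Figure D1:**
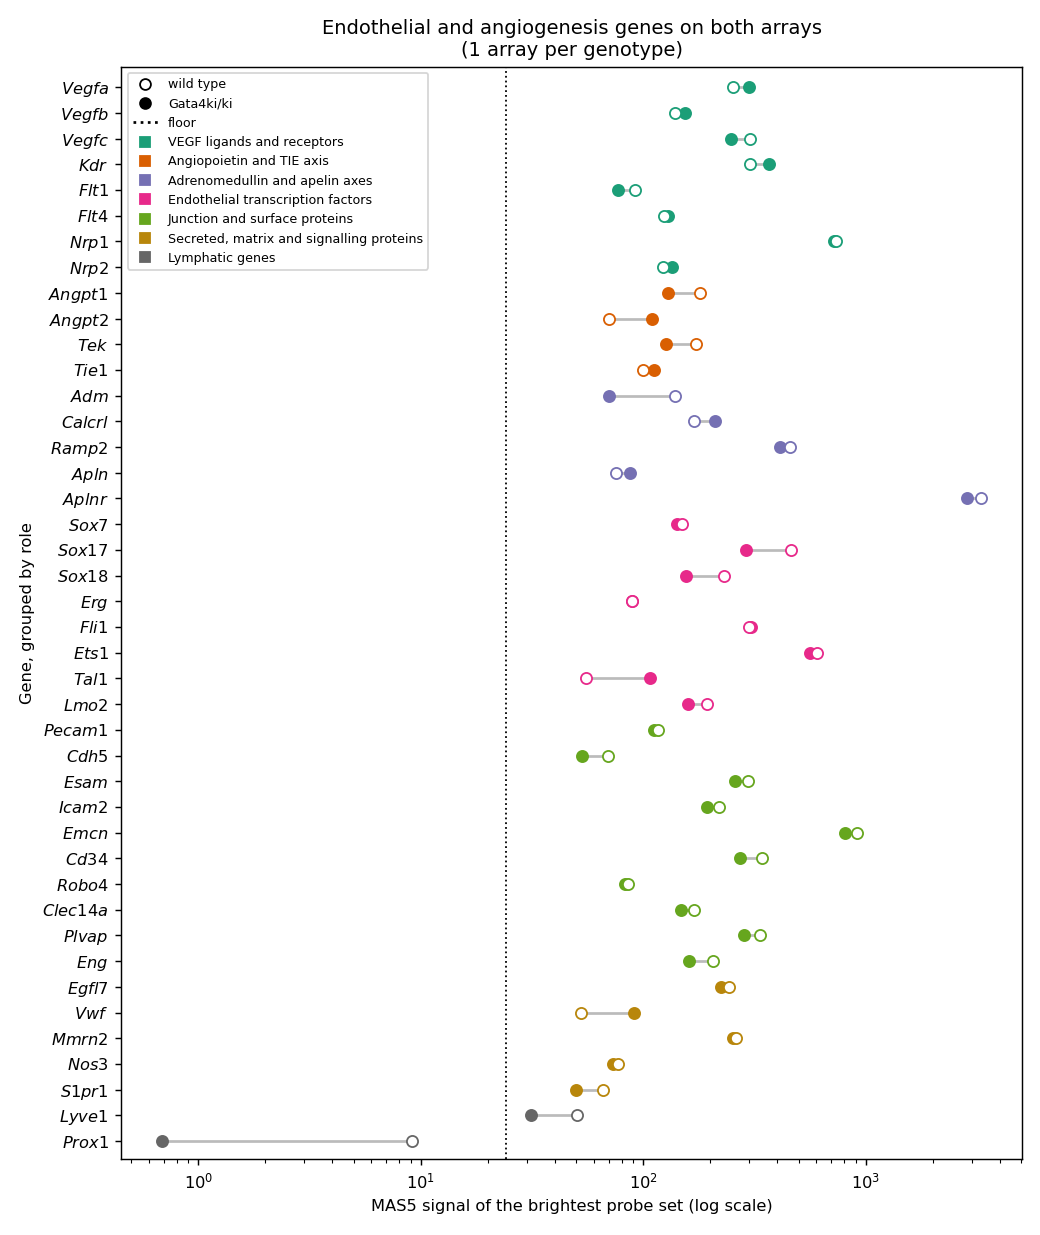
Signals of the 42 genes on the wild-type array (open circles) and the Gata4ki/ki array (filled circles) on a log axis, for the brightest probe set of each gene, with the floor as a dotted line and colours for the role of the gene. The widest gaps above the floor belong to Adm (138 and 70.1) and Tal1 (55.0 and 107), and Prox1 lies under the floor on both arrays.

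Among the members that are VEGF ligands or receptors no gene was far apart between the arrays. Of these 8 genes 3 had a ratio below 0, none was 1.5-fold apart, and the median log2 ratio was 0.09. Kdr, the main signalling receptor for VEGFA, gave 301 in wild type and 369 in the mutant, a log2 ratio of 0.29. Vegfa, the ligand that drives vessel sprouting, gave 253 and 299.6, a ratio of 0.24, but the other one read 48.5 and 39.3, which is -0.31. Flt1, a receptor that also acts as a VEGFA decoy, gave 91.5 and 77.4, a ratio of -0.24. Thus Kdr and Flt1 were on opposite sides of 0, each by less than 1.5-fold. The other measured probe sets of Flt1 had ratios of 0.01 and -0.64, so its size depended on the probe set.

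The remaining ligands and receptors of this axis had small ratios. Vegfb, a ligand of FLT1, gave 138 and 154, a ratio of 0.16. Vegfc, the ligand of lymphatic growth, gave 301 and 247 on its brightest probe set, a ratio of -0.29, whereas its other probe sets gave 0.41 and 0.13. No direction for Vegfc held across its 3 probe sets. Its receptor gene Flt4 gave 124 and 129, a ratio of 0.06. The coreceptor genes Nrp1 (734 and 720.4) and Nrp2 (123 and 134) had ratios of -0.03 and 0.13, and the dimmest measured probe set of Nrp1 gave -0.45. Nrp1, which is also made by cells other than endothelium, had the smallest ratio of this group.

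In the angiopoietin axis the 2 ligands went opposite ways. Angpt1, which encodes the TEK agonist made by cells around the vessel, gave 180.3 in wild type and 129 in the mutant, a log2 ratio of -0.48 or 1.40-fold lower. Its second probe set gave 41.2 and 41.9, a ratio of 0.03. Angpt2, which encodes a ligand that can block TEK and is released by activated endothelium, gave 69.8 and 109, a ratio of 0.64 or 1.56-fold higher. Its other probe set stayed under the floor in both groups. With a pseudocount in place of the floor the ratio of Angpt2 was 0.54, under 1.5-fold.

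Both receptors of this axis were read by 1 probe set each. Tek, the angiopoietin receptor, gave 173 and 127, a ratio of -0.44 or 1.36-fold lower. Tie1, the partner receptor of TEK, gave 99.8 and 112, a ratio of 0.16. The agonist and the receptor gene were therefore lower in the mutant on their brightest probe sets, and the antagonist and the partner receptor higher, with only Angpt2 past 1.5-fold.

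Adm was the lowest of all 41 measured members. It encodes adrenomedullin, a peptide that dilates vessels and tightens endothelial junctions, and gave 138 in wild type and 70.1 in the mutant, a log2 ratio of -0.98 or 1.97-fold lower. Its second probe set gave 33.5 and 16.8, the mutant signal under the floor, so that it was at least 1.39-fold lower there. The brighter probe set carries the suffix of sets that can match other transcripts. Without suffixed probe sets the ratio of Adm was -0.48, which is the bound of its second probe set.

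The receptor genes for adrenomedullin and apelin were closer between the arrays. Calcrl, the adrenomedullin receptor, gave 169 and 209.5, a ratio of 0.31, and Ramp2, the accessory protein that makes it selective for adrenomedullin, gave 458 and 412, a ratio of -0.15. Apln, the ligand apelin, gave 75.5 and 86.8, a ratio of 0.20. Aplnr, the apelin receptor of veins and sprouting vessels, gave 3315 and 2866, a ratio of -0.21, with 165 and 155 on the dimmer probe set, or -0.09. Of these 5 genes 3 had a ratio below 0 and Adm alone was 1.5-fold apart.

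Among the transcription factors Sox17 and Sox18, both of the SOXF family, had the lowest ratios. Sox17, an arterial SOXF factor, gave 461 in wild type and 291 in the mutant, a log2 ratio of -0.66 or 1.59-fold lower. Its second probe set gave 50.8 and 29.6, a ratio of -0.78, and both of its probe sets are suffixed. Sox18, which acts in vessel and lymphatic development, gave 232 and 156, a ratio of -0.57 or 1.48-fold lower. Sox7, the third SOXF factor, gave 149 and 141, a ratio of -0.08. Of the 3 SOXF genes, Sox17 and Sox18 were thus lower and Sox7 was nearly equal.

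The ETS factors were nearly equal on both arrays. Erg, an ETS factor of mature endothelium, gave 88.9 and 89.4, a ratio of 0.01. Fli1, its close relative, gave 297 and 306, a ratio of 0.04, and 0.18 on its second probe set. Ets1, which is also made by stromal and blood cells, gave 601 and 560.4, a ratio of -0.10, and -0.19 on its second probe set. The 3 ETS ratios lay between -0.10 and 0.04.

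Tal1 and Lmo2, partners in a complex of blood and endothelial progenitors, differed in sign. Tal1 gave 55.0 in wild type and 107 in the mutant, a log2 ratio of 0.96 or 1.95-fold higher, the highest of all members, on its only probe set. Lmo2 gave 194 and 159.6, a ratio of -0.28, also on 1 probe set. TAL1 is a factor of red cell and megakaryocyte precursors too. On the same arrays 10 of 11 measured erythroid genes had a ratio above 0, 5 of them at least 2-fold, with a median of 0.29. The signals of the erythroid list summed to 16596 and 18016. Klf1, an erythroid factor, gave 24.5 and 77.1, Slc4a1, the red cell anion exchanger, 48.2 and 129, Alas2, the first enzyme of red cell haem synthesis, 68.6 and 140.1, Ermap 30.3 and 67.6, and Hemgn 20.2 and 109.8, under the floor in wild type. With the floor at the 60th percentile the wild-type signals of Klf1 and Ermap lay under it. Their log2 ratios were then lower limits, 0.67 and 0.48, which do not reach 2-fold. The pseudocount put Ermap and Alas2 under 2-fold, at 0.85 and 0.88. Leaving out suffixed probe sets did so for Slc4a1, at 0.95, and left Alas2 without a value. The globin genes, which make up most of the summed signal, were closer, with log2 ratios of -0.04 for Hbb-y, 0.18 for Hbb-bh1 and 0.29 for Hba-x, and Gata1, an erythroid and megakaryocyte factor, had 0.19. Rhag was the erythroid gene above the floor on neither array. The part of these cells in the Tal1 result was not tested.

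**Figure D2:**
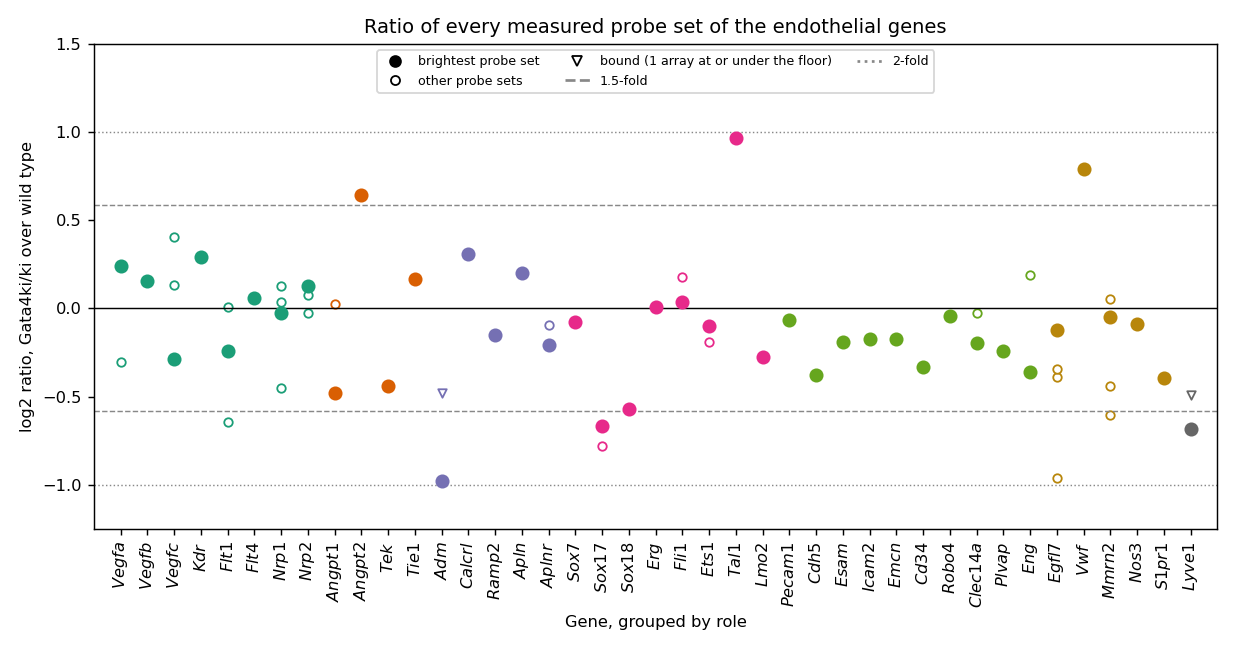
Log2 ratio (mutant over wild type) of every measured probe set of the 41 measured genes, grouped by role. Filled points are the brightest probe set, open points the others, triangles are bounds, and dashed and dotted lines mark 1.5-fold and 2-fold. All 10 filled green points, the junction and surface proteins, lie below 0, while the open points of Vegfc, Flt1 and Eng fall on the other side of 0 from the filled point or spread widely.

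The junction and surface proteins, a group drawn up with earlier results of these data known, were lower in the mutant in 10 of 10 genes. Of all measured genes 48.6% were lower, and none of the 10 reached 1.5-fold. Their median log2 ratio was -0.19, and their ratios lay between -0.38 and -0.04. Cdh5, the cadherin of endothelial junctions, gave 69.1 in wild type and 53.1 in the mutant, a ratio of -0.38. Cd34, a sialomucin of small vessels and blood progenitors, gave 343 and 273, a ratio of -0.33. Eng, the TGF-beta coreceptor endoglin, gave 206 and 160.3, a ratio of -0.36, but its second probe set gave 108 and 123, a ratio of 0.19. Eng was the only gene of this group with a measured probe set above 0. The shared sign belongs to this grouping only. Surface receptors placed in other role groups went both ways, with Kdr at 0.29 and Calcrl at 0.31, but Tek at -0.44 and S1pr1 at -0.40.

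The other members of the group had smaller ratios. Plvap, the protein of endothelial diaphragms, gave 336 and 285, a ratio of -0.24. Clec14a, a lectin of growing vessels, gave 169 and 147, a ratio of -0.20, and -0.03 on its second probe set. Esam, a junction adhesion molecule, gave 295 and 258, a ratio of -0.19. All 10 genes of the group lay within 2 robust SDs of genes of like signal, Eng the furthest from 0 at -1.69. Emcn, an endomucin of veins and capillaries, gave 911 and 807, a ratio of -0.18, and Icam2, an adhesion molecule of endothelium and platelets, gave 218 and 193, a ratio of -0.17. Pecam1, the adhesion molecule CD31, gave 117 and 112, a ratio of -0.07, and Robo4, a roundabout receptor that steadies vessels, 85.1 and 82.7, a ratio of -0.04. Thus the 10 genes shared a sign on their brightest probe sets, with Pecam1 and Robo4 almost equal on both arrays.

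Secreted and signalling proteins of the vessel wall were mostly close, apart from Vwf. Egfl7, a secreted protein of the endothelial matrix, gave 243 in wild type and 223 in the mutant, a log2 ratio of -0.12. Its other 3 probe sets had ratios of -0.39, -0.34 and -0.96, so that 4 of 4 were below 0. Mmrn2, a matrix partner of CLEC14A, gave 262 and 253, a ratio of -0.05, and -0.44, 0.05 and -0.61 on its other probe sets. Nos3, the endothelial nitric oxide synthase, gave 77.4 and 72.8, a ratio of -0.09. S1pr1, the sphingosine-1-phosphate receptor, gave 66 and 50.1, a ratio of -0.40. Of these 5 genes 4 had a ratio below 0, and the median was -0.09.

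Vwf went the other way. It encodes von Willebrand factor, the clotting protein stored by endothelium and platelets, and gave 52.4 in wild type and 90.7 in the mutant, a log2 ratio of 0.79 or 1.73-fold higher, on its only probe set. Of 6 measured platelet and megakaryocyte genes 5 had a ratio above 0 on the same arrays, with a median of 0.52 and summed signals of 784 and 1172. Ppbp, a platelet chemokine, gave 112 and 224, Pf4, platelet factor 4, 357 and 562, Itgb3, a platelet integrin, 40.3 and 75.9, and Gp1bb 33.7 and 44.3. Itga2b, the partner integrin, gave 78.3 and 72.6, and Gp6 and Gp9 stayed under the floor in both groups. The part of these cells in the Vwf result was not tested.

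Both lymphatic members lay near or under the floor. Lyve1, a hyaluronan receptor of lymphatic endothelium and of some macrophages, gave 50.1 in wild type and 31.2 in the mutant, a log2 ratio of -0.68 or 1.61-fold lower. Its second probe set gave 33.8 and 9.83, at least 1.41-fold lower with the mutant under the floor. With the floor at the 60th percentile the mutant signal of Lyve1 lay under it, so that its ratio of -0.05 is a bound. Prox1, the factor that sets lymphatic identity, gave signals of 9.26 or lower on all 3 of its probe sets. Macrophage and leukocyte genes did not share the sign of Lyve1: 14 of 16 had a ratio above 0, with a median of 0.53 and summed signals of 2113 and 3084. Ptprc, the pan-leukocyte antigen, gave 64.0 and 121, Fcer1g 80.2 and 147, Csf1r, a macrophage growth factor receptor, 626 and 1066, and Adgre1, the antigen F4/80, 94.1 and 155. Their part in the Lyve1 result was not tested.

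**Figure D3:**
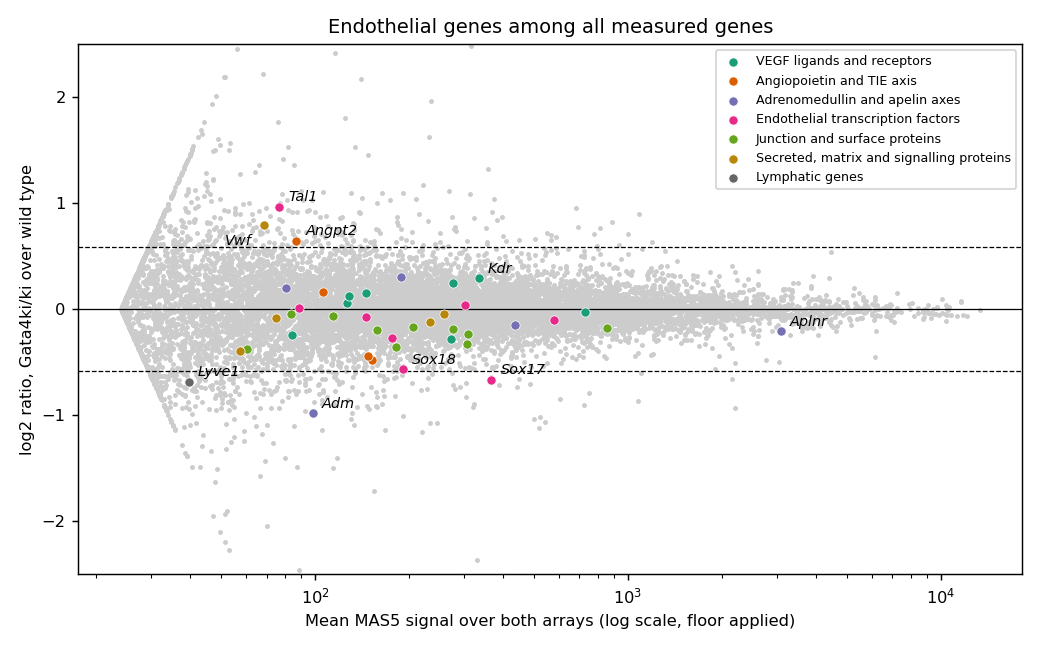
Log2 ratio (mutant over wild type) against mean signal on a log axis for the 12300 measured genes (grey) and the 41 measured endothelial genes (coloured by role), with dashed lines at 1.5-fold; 6 genes lie beyond the plotted range of 2.5. Tal1, Vwf and Angpt2 lie above the upper dashed line at mean signals under 100, where grey points also spread most, and Adm, Lyve1 and Sox17 lie below the lower one.

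Other pan-endothelial genes, which are no members, did not lean the way the members did. Of 35 measured pan-endothelial genes outside the list, 14 had a ratio below 0, and the median log2 ratio was 0.03. None was 1.5-fold apart on its brightest probe set, though Nostrin, with 26.3 and, under the floor, 17.2, is a bound. Other probe sets of Unc5b, Arhgef15 and Adgrf5 were past 1.5-fold, at 0.87, 0.86 and 0.61, where the brightest gave -0.39, -0.07 and -0.13. Cldn5, the tight junction claudin of endothelium, gave 197 and 201. On the brightest probe sets the largest ratios were those of Adgrl4 at 0.46, Rasip1 at 0.42, Gata2 at 0.41 and Klf4 at -0.41. Second probe sets of Adgrl4 and Gata2 gave -0.35 and 0.07. The difference between the 2 lists was not tested, since 1 array per group gives no error for it. Both lists were drawn up with earlier results of these arrays known. Genes of the second list such as Gata2 and Podxl are not particular to endothelium, and which cells gave these signals was not tested.

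Genes of vessel type also went both ways. Of 13 arterial and Notch genes 6 had a ratio below 0, with a median of 0.04. Hey1, a Notch target, gave 192 and 144, Gja4, an arterial connexin, 83.0 and 63.3, and Notch1 219 and 178, ratios of -0.41, -0.39 and -0.30, whereas Notch4 gave 81.0 and 114, a ratio of 0.50. Hey2 was the only gene of this list seen past 1.5-fold on its brightest probe set, at least 1.74-fold lower, with 41.9 and, under the floor, 19.5. Dll4 was at least 1.44-fold higher, with 20.7, under the floor, and 34.6, so that it may also lie past 1.5-fold. Gja1 gave -0.25 on its brightest probe set and from -0.69 to 1.62 on the others. Sox17 was thus accompanied by both lower and higher arterial genes. Of 5 venous genes 2 were below 0, with a median of 0.06. Of these 5, 3 are members, and the others, Ephb4 and Nr2f2, had ratios of 0.17 and -0.05. The other 4 probe sets of Nr2f2 disagreed, at -0.64, 0.16, 0.05 and -0.92. All 6 measured lymphatic genes outside the member list had a ratio above 0, with a median of 0.19. Of all 12300 measured genes 6320 had one above 0. Reln gave 0.18 as a bound, and Itga9 gave 0.02, with -0.65 and -0.13 on its other probe sets. Adamts3, a protease that activates VEGFC, had a ratio of 0.53, Pdpn of 0.23, Vegfd of 0.20 and Ccbe1 of 0.13. Prox1 was above the floor on neither array, and which cells gave these signals was not tested.

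Among the vascular lists, genes that act with the vessel wall held the larger differences. Of 25 factors that promote or limit vessel growth or sense oxygen, 4 were at least 1.5-fold higher and 4 at least 1.5-fold lower. Of all measured genes 3.54% and 3.11% were, and the median log2 ratio of the 25 was 0.07. Thbs2 and Thbs1, thrombospondins that inhibit vessel growth, were 3.48-fold and 2.15-fold higher, with 66.8 and 233 for Thbs2 and 26.7 and 57.4 for Thbs1. The other 2 probe sets of Thbs2 had log2 ratios of 2.59 and 1.92. Thbs1 was less secure: its second probe set gave 0.50 as a bound. With the floor at the 60th percentile the wild-type signal of Thbs1 lay under it, and its ratio of 0.24 is a lower limit. The ratio was 0.78 with the pseudocount, and 0.80 with the median over probe sets, which includes the bound, both under 2-fold. Tgfa, a growth factor of the EGF family, was 2.85-fold lower with 82.0 and 28.7, while its second probe set gave -0.08 as a bound, with the mutant under the floor. With the higher floor the mutant signal of Tgfa lay under it, and its log2 ratio of -0.76 is a bound. With the median over probe sets, which includes the bound of the second, the ratio was -0.80, under 2-fold. Slit3, a guidance ligand, had a ratio of 0.90. The others past 1.5-fold were Ccn1 at 0.70, Angptl4 at -0.74 (569 and 341), Pgf at -0.74 (42.8 and 25.6) and Hgf at -0.59. Further probe sets gave 0.85 and 0.45 for Ccn1, and -0.34 and -0.36 for Hgf. Thbs2 was past 2-fold in all 8 alternative settings.

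Mural cell genes, most of which mark the pericytes and smooth muscle around vessels, had a median of -0.02, and 8 of 12 were below 0. The 8 include Pdgfb, a ligand gene and no such marker, at -0.12. They also include Myh11, a bound of -0.0001 with the wild-type signal barely above the floor and the mutant under it. Acta2 gave 795 and 1475 and Tagln 140.3 and 243, both contractile genes of smooth muscle, whereas Cspg4, a pericyte proteoglycan, gave 42.2 and 26.2 and Des 83.0 and 63.7. Genes of TGF-beta and BMP signalling in vessels had a median of -0.05 over 13 genes. There Bmper had a ratio of 0.60, Bmpr2 of 0.39, Id1 of -0.29 and Id2 of -0.25, and Acvrl1, the receptor that acts with endoglin, was at least 1.63-fold lower, with 39.3 and, under the floor, 22.3. The second probe set of Bmpr2 gave 0.08, and the others of Id2 gave -0.20 and, as a bound with the mutant under the floor, -1.17.

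Lists of genes of other cell types were read on the same arrays. Of 14 mesonephric duct and tubule genes 9 had a ratio below 0, with a median of -0.15 and summed signals of 6064 and 4917. Amhr2, which Müllerian mesenchyme and gonadal somatic cells express, gave 2620 and 1838 of these. Without it 8 of 13 were below 0, the median was -0.15 and the sums were 3444 and 3079. Calb1, Wnt7a and Amhr2 had ratios of -0.72, -0.63 and -0.51, and Cdh6 had 0.43, while second probe sets of Wnt7a and Cdh6 gave 0.34 and -0.54. Of 8 coelomic epithelium genes 7 had a ratio above 0, with a median of 0.22 and summed signals of 4876 and 5338, led by Krt8, Muc16, Krt7 and Krt19 at 0.43, 0.40, 0.40 and 0.29. The trophoblast list stands for a tissue outside the dissected complexes. Of its 6 measured genes 5 had a ratio above 0, with a median of 0.21. Rhox9 and Rhox6 were well above the floor on both arrays, with 464 and 583, and 399 and 494, ratios of 0.33 and 0.31. Peg10 and Tfpi2 lay near the floor, with ratios of 0.11 and -0.10, and Hand1 gave 0.04 as a bound. Only Prl7d1 was past 1.5-fold, with 3.20 and 54.8, under the floor in wild type. Ctsm, Psg17 and Tpbpa were above the floor on neither array. Whether any of these signals came from trophoblast was not tested. Endothelium of the mesonephros is part of each array, and the part of the share of mesonephros in the members' ratios was not tested.

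**Figure D4:**
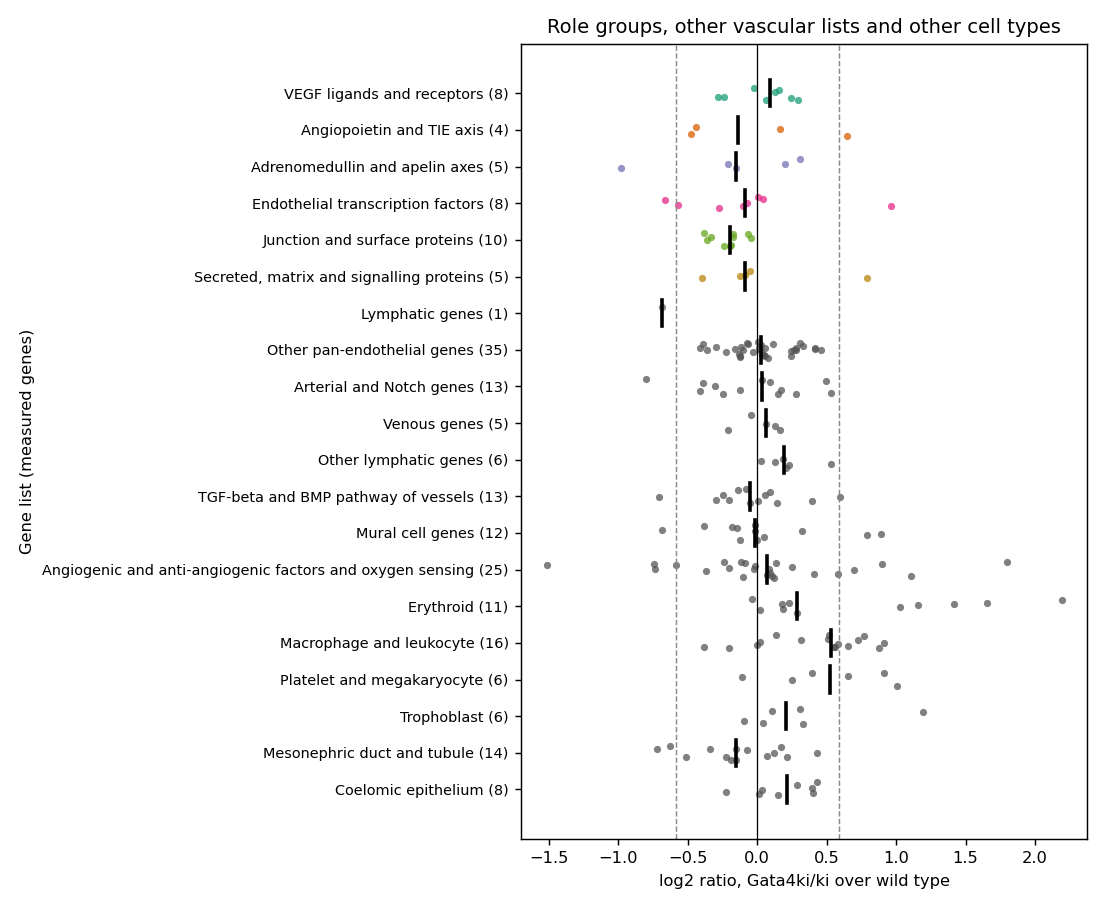
Log2 ratio (mutant over wild type) of each measured gene in the 7 role groups of the endothelial list (coloured) and in the other vascular and cell type lists (grey), with a black bar at each list's median and dashed lines at 1.5-fold. The junction and surface proteins cluster between -0.38 and -0.04, the other pan-endothelial genes lie on both sides of 0, and the macrophage, platelet and erythroid medians (0.53, 0.52 and 0.29) lie to the right.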

How the data were processed

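Total RNA of 6 pairs of complexes per genotype was measured on 1 array each. The authors deposited a linear signal intensity for every probe set, and the submitters' processing notes name MAS5 as their software. Its version, detection calls and any filter: not given in the sources used here. On both arrays the mean without the top and bottom 2% was 150.0, which shows global scaling, and the values were used as deposited. Background subtraction makes low signals the least precise. Of 45101 probe sets, 34945 with 1 annotated symbol, control probe sets left out, were used. All 42 members were found by gene number in the RefSeq table of GRCm38.p6, with the same symbol.

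Signals under the floor (the 50th percentile over both arrays) were set to it before log2, and where only 1 array exceeded it the fold is a lower limit, given as "at least". The brightest probe set is the one with the highest mean log2 signal. The robust SD is the median absolute deviation, scaled to match the SD of a normal distribution. With 1 array per group no test was possible. Members of a list are described beside all measured genes. The procedure was also run on simulated arrays, with changes of at least 2-fold planted in genes well above the floor. That run does not bear on smaller differences or on low signals. Computation used Python 3.11.15, numpy 2.4.6 and pandas 2.3.3.

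The members and all lists were chosen with earlier results of these data known. Every member is accounted for. Of each other list, up to 4 genes with the largest ratios among those above the floor on both arrays are named, and any at least 2-fold apart. Cldn5 is named besides as a marker. Named after their values were seen are Hey2, Acvrl1, Nr2f2, Itga2b, Gata1, the globins, Hand1, Itga9, Reln, Ccn1, Angptl4, Pgf and Hgf. So are Nostrin, Unc5b, Arhgef15, Adgrf5, Podxl, Dll4, Gja1, Myh11 and Pdgfb. The same holds for the genes named as above the floor on neither array. The alternatives were 2 other floors, a pseudocount of 16, the median over probe sets, leaving out suffixed probe sets, and 3 other scalings. Leaving Amhr2 out of the mesonephric list was added after the values were seen.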

Additional observations from a re-analysis of the deposited data

How the results depend on the processing

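Across the 8 alternative settings the median log2 ratio of the members lay between -0.13 and -0.09, and the median of all genes stayed between 0.00 and 0.01. The members with a ratio below 0 numbered 28 of 41 or 42 in 6 settings, 27 with the median over probe sets and 20 of 33 without suffixed probe sets. No member reached 2-fold in any of these settings. Without suffixed probe sets 1 member (Lyve1) was at least 1.5-fold lower. Sox17 has suffixed sets only, and Adm was at -0.48, a bound with the mutant under the floor. The number at least 1.5-fold lower was 2 with the floor at the 60th percentile, where the ratio of Lyve1 is a bound. It was also 2 with the pseudocount, and 3 otherwise. The number at least 1.5-fold higher was 2 with the pseudocount and 3 otherwise. Among ratios of single members under these settings 312 stayed within the robust SD of genes of like signal, and 8 moved further, those of Vegfa, Vegfc, Angpt1, Adm, Eng, Egfl7 and Lyve1, and none of the members past 1.5-fold changed sign. Vegfa and Vegfc had ratios of -0.03 and 0.13 with the median over probe sets, and Vegfc 0.41 without suffixed sets. Of list medians, the erythroid one was between 0.56 and 0.62 with the higher floor, the pseudocount or without suffixed sets. The platelet one was 0.32 and 0.64 with the lower and higher floor and 0.25 with the pseudocount, and the trophoblast one was 0.32 with the lower floor. With the median over probe sets, that of the secreted proteins was -0.24 and that of the angiopoietin axis -0.03. No paired analysis was possible because each group is 1 array. Precision is limited by having 1 array per group and by low signal: 12 of the 41 members had mean signals under 100.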
